A study of Mus musculus with 8 samples.

Results

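Transcription factors of lymphoid commitment were followed through fetal liver haematopoietic stem cells of wild-type and Crebbp+/- mouse embryos: Ebf1, Pax5, Tcf3, Tcf4, Foxo1, Bcl11a, Ikzf1, Ikzf3, Satb1 and Bach2. All probe sets, groups of short probes that report 1 transcript, were taken whose annotation gives 1 of these 10 symbols and no other. This rule found 40 probe sets among the 45037 of the array that are not controls, with at least 2 for each of the 10 genes, of 18193 genes that have a probe set of 1 symbol. Both groups were on a C57BL/6 background and differed in 1 allele of Crebbp, whose protein CBP is a histone acetyltransferase and coactivator. The labels do not give the part of the gene that the mutant allele lacks. Stem cells carried Sca-1 and AA4.1, were strongly positive for c-Kit and lacked lineage markers, and each preparation joined cells of 15 embryos. The age stands as 14.5 days post coitum in one label and as 14 in another. RNA, 12 ng for each target, was amplified before it was labelled and hybridised to Affymetrix whole-genome mouse arrays. Each genotype had 2 numbered samples with 2 arrays each, 8 arrays in all. The arrays of a sample were averaged, since no label says that they held separate cells, so n = 2 per genotype. Nothing in the labels says that the numbered samples came from separate litters, and p-values then measure only the spread between these preparations.

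Lymphoid fate is set in steps. In multipotent cells Ikzf1, the E proteins Tcf3 (E2A) and Tcf4 (E2-2), Bcl11a and Satb1 prime lymphoid genes. Tcf3 and Foxo1 then help to switch on Ebf1, which activates Pax5, and Ebf1 and Pax5 together hold cells in the B lineage. CBP and its relative Ep300 are recruited by many of the factors that act in these steps, E proteins among them.

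Values are GCRMA log2 signals, in which 1 unit is a doubling of signal. A positive difference means a higher signal in Crebbp+/-. Each has its standard error (SE) and, where stated, the 95% confidence interval of a limma fit over 22518 probe sets, those with a mean above 2.72, the median of all. Of the 40 probe sets, 26 passed this filter and 14 did not. The 26 covered 8 genes, while Pax5 and Ikzf3 had no probe set above the filter. A probe set that passed only because it was high in 1 genotype had to differ, so counts over the 26 are given as descriptions. Signals of different probe sets are not compared with each other, since probes differ in how well they bind. Cells with more of a transcript and more cells that hold it cannot be told apart in these bulk samples.

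None of the 8 tested genes differed between the genotypes by the test, and Pax5 and Ikzf3 were not tested. Of the 26 tested probe sets 0 were called at an adjusted p of 0.05, as were 0 of all 22518 probe sets, or 0%. The limma adjusted p of the 26 ran from 0.991 to 0.999. At an unadjusted p under 0.05 the count was again 0 of 26, against 1.23% of all tested probe sets higher and 3.61% lower. For 0 of the 26 did all 4 arrays of one genotype lie above all 4 of the other, against 3.24% of all tested probe sets higher and 3.74% lower in Crebbp+/-. The median difference was 0.05 over the 26 and 0.02 over all tested probe sets. It was 0.04 over the 19054 tested probe sets with 1 symbol, which the 26 have by the rule. A positive difference was found for 18 of the 26, or 69.2%, against 53.0% of all tested probe sets and 56.5% of those with 1 symbol. After an added quantile normalization the number among the 26 was 14. Within both sample numbers, the signal of Crebbp+/- was above that of wild type for 13 of the 26 and below it for 4. The shares of all tested probe sets were 33.9% and 28.5%. Of the 19054 with 1 symbol, 6994 were above and 4789 below. Probe sets of 1 gene share their transcript, so the 26 are not independent.

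**Figure D1:**
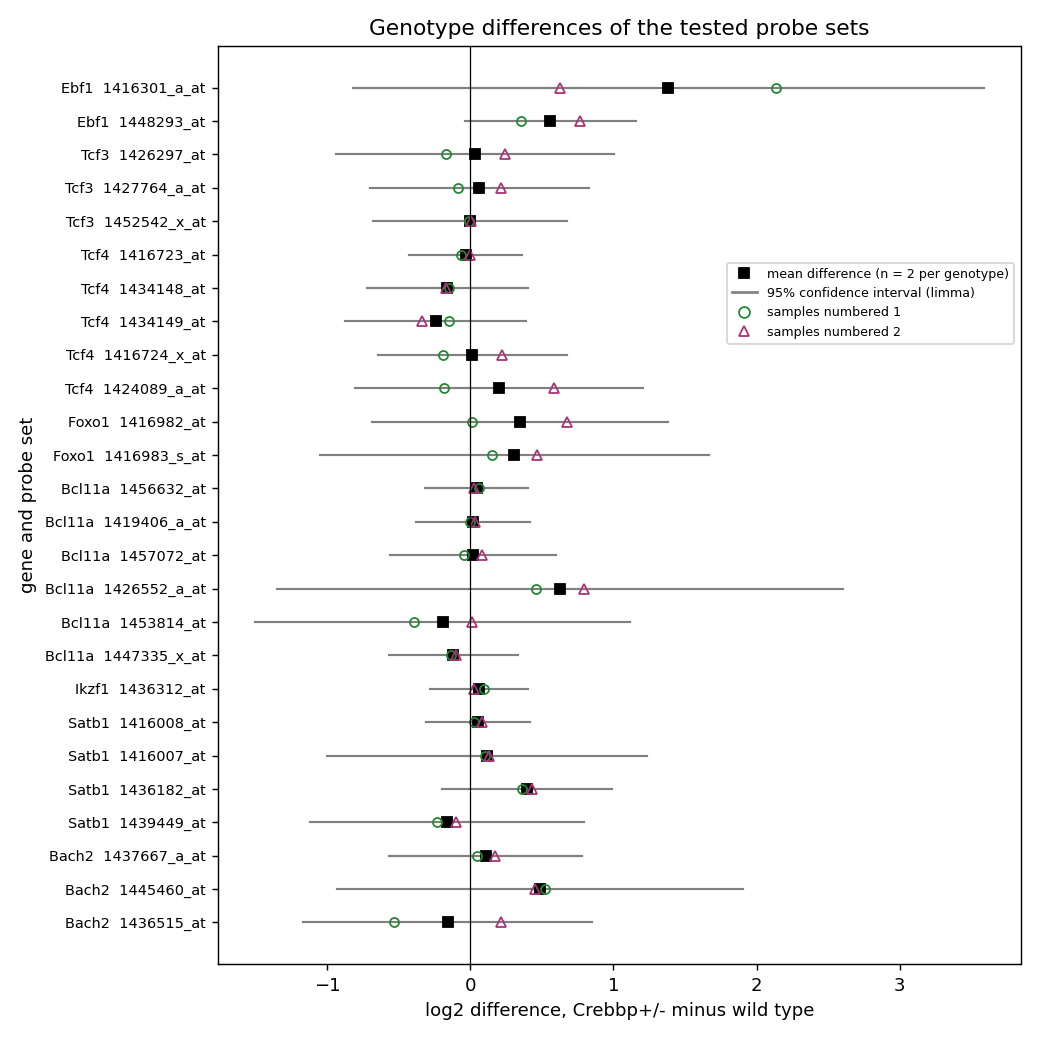
Log2 difference of each of the 26 tested probe sets, Crebbp+/- minus wild type, as the mean (black squares, n = 2 per genotype) with the limma 95% confidence interval (grey lines), and within the samples numbered 1 (green circles) and 2 (purple triangles). Every interval includes 0, and Ebf1 1416301_a_at has the largest difference, 1.38.

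Over the series, the sorted cells carried transcripts of the gate markers c-Kit and AA4.1 in both genotypes. Ly6a, which encodes Sca-1, had no probe set of 1 symbol and was not read. Kit had a log2 signal of 9.05 to 9.36 over the 4 samples, and Cd93, which encodes the AA4.1 antigen, 12.05 to 12.33. Cd34, a stem cell marker outside this gate, read 11.77 to 12.04. Of 6 measured markers of mature B cells only Cd79b passed the filter (8.01 to 8.28), while Cd79a, Cd22, Ms4a1, Cr2 and Fcer2a lay between 2.26 and 2.57. Crebbp itself differed by 0.07 (SE 0.26) at its brightest probe set and by 0.01, -0.42 and -0.35 at the others. Ep300 differed by 0.24 (SE 0.18), and the limma adjusted p was 0.991 or above for both genes. All 4 Crebbp+/- arrays lay above all 4 of wild type for Ep300, against 390 of 10600 tested genes at their brightest probe set. A Crebbp probe set outside the missing part does not check the genotype. Of 10 tested stem cell markers 5 were higher and 5 lower in Crebbp+/-, and 0 were called. For 3 of the lower ones, Mecom, Hlf and Procr, the arrays of the genotypes did not overlap, with differences of -0.38, -0.54 and -0.81. This compares with 211 of 10600 tested genes lower without overlap at their brightest probe set. Meis1 had the largest difference of these markers, -1.26 (SE 0.40), with arrays that overlap. Meis1, Hlf and Mecom, 3 of the 10, had an unadjusted limma p under 0.05, against 136 of the 10600 genes in the lower direction. Cpa3, the only one of 8 mast cell markers above the filter, differed by 2.18, again without overlap, against 390 of the 10600 genes higher. Of 5 tested megakaryocyte markers 1 was higher and 4 lower, and 2 of these did not overlap, against the same 211 of 10600 genes. Gp9 differed by -1.21. Vwf was lower by an uncertain amount, since its Crebbp+/- samples, at 2.77 and 2.76, lay at the filter. The part of these stem cell, mast cell and megakaryocyte differences in the results below was not tested. Hepatocyte transcripts stood apart in 1 preparation: log2 signals of the 7 measured markers summed to 26.0 in wild-type sample 1, 44.3 in wild-type sample 2, and 39.0 and 40.5 in Crebbp+/- samples 1 and 2, with Alb at 2.43 in the first and 5.74 to 7.06 in the others. The 5' minus 3' log2 signal of the Gapdh control, which falls as RNA degrades, went with the sample number, at -1.22 and -0.89 in the samples numbered 1 and at -2.59 and -1.88 in those numbered 2.

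Ebf1, the factor that commits progenitors to the B lineage, had the largest difference of the 10 genes. Its brightest probe set, 1416301_a_at, read 5.59 and 4.74 on the arrays of wild-type sample 1 and 7.43 and 7.59 on those of wild-type sample 2. In Crebbp+/- it read 7.04 and 7.58 in sample 1 and 8.50 and 7.77 in sample 2. Wild-type sample 1 was low on both arrays, and wild-type sample 2 lay within the range of the Crebbp+/- arrays, so the genotypes overlap. The wild-type mean was 6.34 ± 1.66 (SD, n = 2) and that of Crebbp+/- 7.72 ± 0.59, which makes a difference of 1.38 (SE 0.84, interval -0.82 to 3.59, limma adjusted p = 0.991), which is 2.61-fold on the linear scale. It was 2.14 between the number 1 samples and 0.63 between the number 2 samples. Without wild-type sample 1 it was 0.21, and without wild-type sample 2 it was 2.55. Wild-type sample 1 was also the sample with the lowest hepatocyte signals given above, and the part of these in the Ebf1 difference was not tested.

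The second tested probe set of Ebf1 differed in a tighter range. At 1448293_at the wild-type arrays read 3.02, 2.95, 2.93 and 3.02, and the Crebbp+/- arrays 3.004 and 3.67 in sample 1 and 3.52 and 3.97 in sample 2. One Crebbp+/- array, at 3.004, fell among the wild-type values and the other 3 lay above them all. The difference was 0.56 (SE 0.23, interval -0.03 to 1.16, limma adjusted p = 0.991), 0.35 between the number 1 samples and 0.77 between the number 2 samples. Here wild-type samples 1 and 2 differed by -0.01, where at 1416301_a_at they differed by 2.34. A narrow spread this close to the filter is no sign of a more precise reading. The other 3 probe sets of Ebf1 lay below the filter and have no test. Of these, 1416302_at read 2.39 to 2.41 on the wild-type arrays and 2.41, 2.42, 2.65 and 3.51 on those of Crebbp+/-, and 1439789_at and 1457441_at stayed between 2.23 and 2.28 on all 8.

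**Figure D2:**
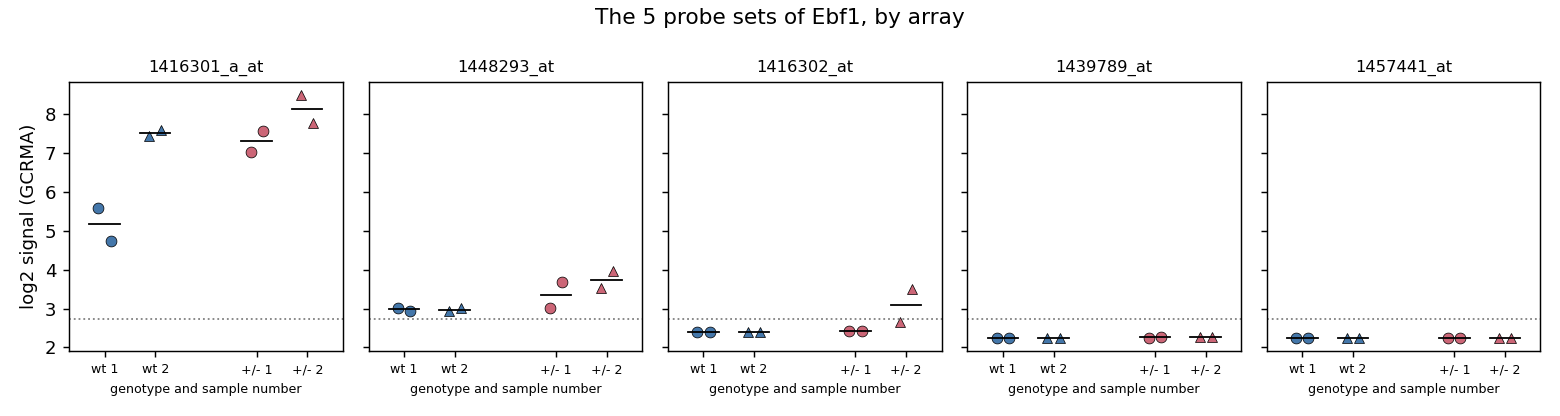
Log2 GCRMA signal of the 5 probe sets of Ebf1 on each array, with circles for samples numbered 1, triangles for samples numbered 2, blue for wild type, red for Crebbp+/-, a black bar for the mean of the 2 arrays of a sample, and the filter of 2.72 dotted. At 1416301_a_at wild-type sample 1 stands below the other 3 samples, and at 1448293_at all wild-type arrays lie between 2.93 and 3.02, close to the filter.

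Because Ebf1 had the largest difference, the sequence before its starts is shown. RefSeq (GRCm38.p6) gives 2 start windows of the gene on the plus strand of chromosome 11, 2128 bases apart, and the 250 bases before each start follow, 5′ to 3′. Capitals mark GGGAA or its reverse complement TTCCC, the core that Ikaros proteins bind.
Ebf1 upstream window, chr11:44617850-44618099: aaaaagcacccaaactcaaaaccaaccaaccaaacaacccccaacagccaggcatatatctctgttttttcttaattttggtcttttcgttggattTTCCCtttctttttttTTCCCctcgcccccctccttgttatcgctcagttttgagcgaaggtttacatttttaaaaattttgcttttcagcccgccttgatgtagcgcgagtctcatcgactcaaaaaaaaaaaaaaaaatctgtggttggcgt
Ebf1 downstream window, chr11:44619978-44620227: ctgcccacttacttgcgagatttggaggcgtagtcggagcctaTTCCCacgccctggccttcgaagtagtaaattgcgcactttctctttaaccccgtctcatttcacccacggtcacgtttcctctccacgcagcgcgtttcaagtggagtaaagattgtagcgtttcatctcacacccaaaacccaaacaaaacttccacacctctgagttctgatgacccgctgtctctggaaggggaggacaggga
The upstream window holds this core at 2 places and the downstream window at 1, on the strand opposite to the gene in each case. Of 32817 such windows in the RefSeq table, 56.2% hold it on one strand or the other. Windows of 8 of the 10 factors were read, 14 windows in all of which 2 of Satb1 overlap, and 11 of these 14 held it. Tcf4 lies on a chromosome whose windows were left out for the factors, and Ikzf3 had no window. The counts over the 14 therefore do not cover these genes. The E-box that E proteins prefer, CAGGTG, was in 1 of the 14 (at Satb1) against 17.2% of all windows, and the EBF core CCCNNGGG in 2 of the 14 (at Foxo1 and Ikzf1) against 11.8%. The short site of CREB, a factor that recruits CBP, TGACG, was in 0 of the 14 against 17.8% of all windows, and the full site TGACGTCA in 0 against 1.55%. All motifs were searched on both strands, TGACG is part of TGACGTCA, and a match or its absence describes these letters only.

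Pax5, the factor that maintains B cell identity downstream of Ebf1, had no signal above the filter in either genotype. Both of its probe sets read between 2.22 and 2.24 on all 8 arrays, below the filter of 2.72, and were not tested. Ikzf3, which encodes Aiolos, an Ikaros relative of later lymphoid stages, was alike, with its 3 probe sets between 2.27 and 2.34 on all arrays.

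The primers of lymphoid genes, by contrast with Pax5 and Ikzf3, had signals well above the filter in every sample, and their brightest probe sets differed little. Ikzf1, which encodes Ikaros, read 11.19, 11.39, 11.28 and 11.43 on the wild-type arrays and 11.26, 11.50, 11.40 and 11.37 on the Crebbp+/- arrays at 1436312_at. The arrays of the genotypes interleave. The means were 11.32 ± 0.05 (SD, n = 2) and 11.38 ± 0.002, a difference of 0.06 (SE 0.13, interval -0.28 to 0.40, limma adjusted p = 0.994). The other probe set of Ikzf1, 1421303_at, lay below the filter at 2.26 to 2.40.

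Satb1, a chromatin organiser that supports lymphoid potential in stem cells, had 4 tested probe sets. The brightest, 1416008_at, read 11.87, 12.04, 12.13 and 12.07 in wild type and 12.02, 11.95, 12.14 and 12.23 in Crebbp+/-, and the difference was 0.06 (SE 0.14, interval -0.31 to 0.42). At 1436182_at the arrays read 7.39 and 7.85, then 7.25 and 7.92 in wild-type samples 1 and 2, and 8.14 and 7.84, then 8.18 and 7.85 in those of Crebbp+/-. Both Crebbp+/- samples lay above both wild-type samples at this probe set, while single arrays overlap between 7.84 and 7.92. The difference was 0.40 (SE 0.23, interval -0.20 to 0.99, limma adjusted p = 0.991), 0.36 and 0.43 within the samples numbered 1 and 2, and the 2 arrays of a sample differed there by up to 0.67. The probe sets 1416007_at and 1439449_at differed by 0.12 and -0.16, and 1439315_at lay below the filter at 2.38 to 2.82.

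**Figure D3:**
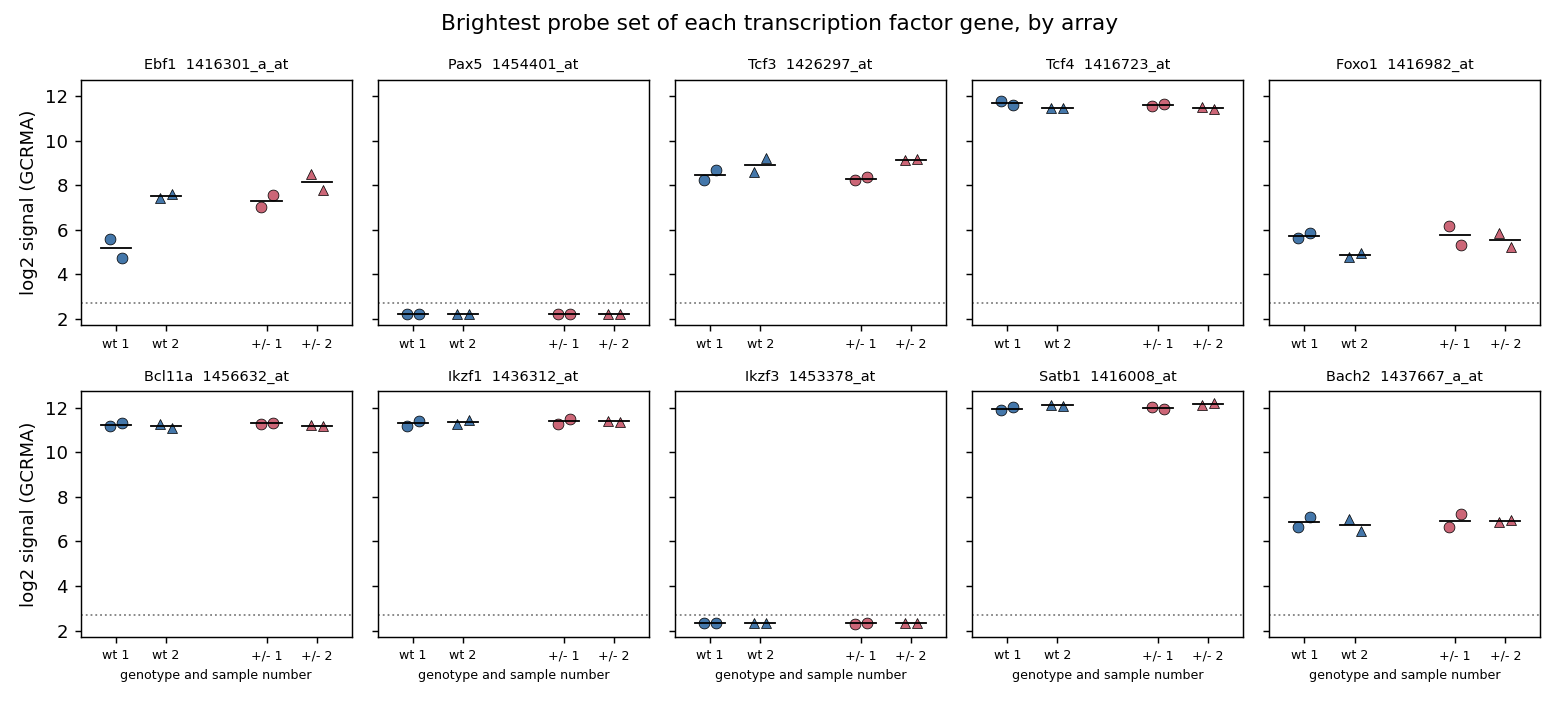
Log2 GCRMA signal of the brightest probe set of each of the 10 genes on each array, with circles for samples numbered 1, triangles for samples numbered 2, blue for wild type, red for Crebbp+/-, black bars for sample means, and the filter of 2.72 dotted. Pax5 and Ikzf3 lie below the dotted line on all arrays, and only Ebf1 shows a sample, wild-type sample 1, over 1 unit below the other 3.

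The E proteins Tcf3 and Tcf4, which bind E-boxes in lymphoid enhancers, did not differ by the test at any of 8 tested probe sets. At 1426297_at Tcf3 read 8.23, 8.69, 8.61 and 9.21 in wild type and 8.24, 8.35, 9.11 and 9.19 in Crebbp+/-, a difference of 0.04 (SE 0.37, interval -0.93 to 1.01). In both genotypes sample 2 had the higher mean, by 0.45 and 0.86. The probe set 1427764_a_at differed by 0.06 (SE 0.29), and 1452542_x_at read between 5.05 and 5.08 on all 8 arrays. The largest gap between 2 arrays of a sample was 0.019 at 1452542_x_at, against a median of 0.41 over the 26. Whether so flat a probe set follows the transcript was not tested.

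Tcf4, which besides its part in lymphoid cells specifies plasmacytoid dendritic cells, was bright at 1416723_at. It read 11.76, 11.57, 11.46 and 11.45 in wild type and 11.56, 11.65, 11.49 and 11.41 in Crebbp+/-, a difference of -0.03 (SE 0.15, interval -0.43 to 0.36). The arrays of the genotypes interleave. Its other tested probe sets differed by -0.16 (1434148_at), -0.24 (1434149_at), 0.02 (1416724_x_at) and 0.20 (1424089_a_at), with SE from 0.21 to 0.39, and 1416725_at lay below the filter at 2.33 to 2.35. The probe sets 1434148_at and 1434149_at were lower in Crebbp+/- within both sample numbers, by -0.15 and -0.17 and by -0.14 and -0.34.

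Bcl11a, a zinc finger factor without which early B cells fail to form, had 6 tested probe sets. The brightest, 1456632_at, read 11.18, 11.29, 11.26 and 11.06 in wild type and 11.28, 11.30, 11.23 and 11.16 in Crebbp+/-, a difference of 0.04 (SE 0.14, interval -0.31 to 0.40). At 1419406_a_at the difference was 0.02 (SE 0.15), and at 1457072_at it was 0.02 (SE 0.22). The probe set 1426552_a_at read 9.07, 8.99, 7.28 and 7.29 in wild type and 9.52, 9.46, 8.28 and 7.88 in Crebbp+/-. Within each number the Crebbp+/- arrays were the higher ones, by 0.46 and 0.80, but the samples numbered 2 lay below those numbered 1 by 1.75 in wild type and by 1.41 in Crebbp+/-. The difference of 0.63 (SE 0.76, interval -1.35 to 2.604) was smaller than the SD between samples, 1.24 and 1.00. The dimmer 1453814_at and 1447335_x_at differed by -0.19 and -0.12, and 1447334_at lay below the filter in its mean, with single arrays from 2.29 to 3.49.

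Foxo1, a forkhead factor that acts with Tcf3 on Ebf1 and the recombinase genes, had 2 tested probe sets of nearly equal difference. At 1416982_at it read 5.61, 5.87, 4.79 and 4.94 in wild type and 6.19, 5.32, 5.85 and 5.24 in Crebbp+/-, and the difference was 0.35 (SE 0.40, interval -0.69 to 1.38). At 1416983_s_at it read 4.52, 5.24, 5.76 and 5.60 in wild type and 4.80, 5.26, 6.45 and 5.85 in Crebbp+/-, and the difference was 0.31 (SE 0.52, interval -1.05 to 1.67). The genotypes overlap at both. The wild-type samples ran in opposite directions at the 2 probe sets, with sample 2 lower by 0.88 at the first and higher by 0.80 at the second. The remaining 1416981_at and 1456529_at were below the filter, with means of 2.47 and 2.48 in wild type and 2.55 and 2.50 in Crebbp+/-.

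Bach2, a repressor that holds back myeloid genes in lymphoid progenitors, had 3 tested probe sets of mixed sign. At 1437667_a_at it read 6.66, 7.12, 7.02 and 6.46 in wild type and 6.66, 7.22, 6.88 and 6.94 in Crebbp+/-, a difference of 0.11 (SE 0.26, interval -0.57 to 0.78). At 1445460_at it read 5.80, 7.31, 5.64 and 5.48 in wild type and 7.37, 6.79, 6.25 and 5.78 in Crebbp+/-, a difference of 0.49 (SE 0.54). The 2 arrays of wild-type sample 1 differed there by 1.51, more than the genotypes did. At 1436515_at the difference was -0.16 (SE 0.39), with -0.53 between the number 1 samples and 0.22 between the number 2 samples.

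Sample number separated these probe sets more often than genotype did. All 4 arrays numbered 2 lay above all 4 numbered 1 for 5 of the 26 tested probe sets and below them for 4, against 10.2% and 11.0% of all tested probe sets, and this difference was not tested. From sample 1 to sample 2 the sign was the same in wild type and in Crebbp+/- for 23 of the 26, or 88.5%, against 71.6% of all tested probe sets. The mean difference between numbers was larger than that between genotypes for 21 of the 26, or 80.8%, against 61.3% of all. The Gapdh 5' minus 3' signal moved with the sample number too, as given above, and its part was not tested.

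In 3 genes, probe sets separated on all arrays by the sample number went opposite ways within the gene. In Foxo1, Tcf3 and Bach2 probe sets also differed in direction, but not with all arrays of both separated. The share of all genes with several tested probe sets that hold such opposite pairs was not counted. The 3 genes are therefore described only, and nothing here sets them apart from other genes. For Bcl11a, 1426552_a_at and 1453814_at were lower on all arrays numbered 2, the latter by 1.12 in wild type and 0.72 in Crebbp+/-, while 1419406_a_at was higher on all of them, by 0.11 and 0.14. For Satb1, 1416007_at was higher by 0.78 and 0.81 and 1416008_at by 0.14 and 0.20, while 1439449_at was lower by 0.64 and 0.50. For Tcf4, 1434148_at was higher by 0.33 and 0.31, while 1416723_at was lower by 0.22 and 0.15. The remaining probe set of the 9 was Foxo1 1416983_s_at, higher by 0.80 and 1.12. Across the 8 arrays, which are repeats of 4 samples, the lowest correlation between 2 tested probe sets of 1 gene was -0.85 for Satb1, -0.70 for Bcl11a and -0.62 for Tcf4, and the highest was 0.83, 0.77 and 0.80.

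**Figure D4:**
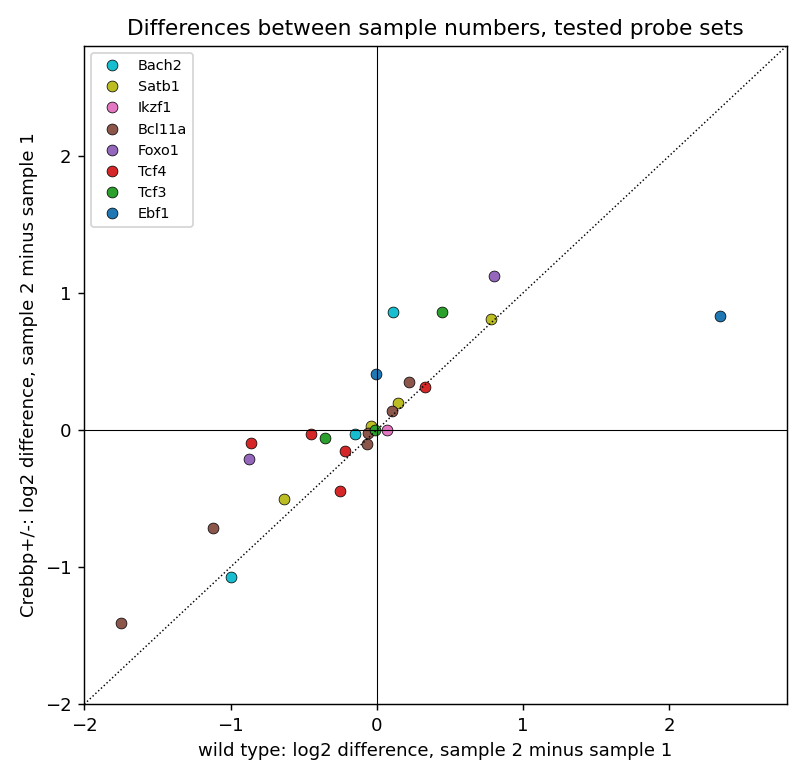
Log2 difference of sample 2 minus sample 1 in wild type (horizontal) and in Crebbp+/- (vertical) for the 26 tested probe sets, coloured by gene, with the line of equal differences dotted. For 23 of the 26 both differences have the same sign, and Bcl11a 1426552_a_at, at -1.75 and -1.41, and Ebf1 1416301_a_at, at 2.34 and 0.83, lie farthest out at the lower left and at the right.

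Genes around the 10 factors were read from 3 further lists, by the brightest probe set of each gene, for which 56.9% of all 10600 tested genes had a positive difference and the median was 0.04. Family members and partners of the factors (E protein Tcf12, the Id inhibitors of E proteins, other Ikaros, Foxo, Ebf, Pax and Bach genes) had 10 tested genes of 17 measured, 8 higher, 2 lower and 0 called, with a median of 0.15. Id1, an inhibitor of E proteins, differed by 0.50 (SE 0.38), and Bach1, a relative of Bach2, by 0.18 (SE 0.14).

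Other early lymphoid transcription factors had 19 tested genes of 22 measured, of which 14 were higher, 5 lower and 0 called, with a median of 0.17. Of the 19, 3 had an unadjusted limma p under 0.05, against 147 of the 10600 tested genes in this direction, and none passed adjustment. Pou2af1, a coactivator of octamer factors in B cells, read 2.44 and 3.11 in wild-type samples 1 and 2 and 4.82 and 4.08 in those of Crebbp+/-. Its difference was 1.68 (SE 0.38, limma adjusted p = 0.991), and the wild-type mean of 2.77 lay at the filter, so the size is uncertain. Irf4, an interferon regulatory factor of lymphoid cells, read 5.04, 5.30, 6.74 and 6.17 in the same order, a difference of 1.28 (SE 0.34). Lef1, a Wnt pathway factor expressed in early lymphocytes, read 3.41, 3.69, 4.63 and 4.52, a difference of 1.03 (SE 0.24). For these 3 genes and for Mef2c, which differed by 0.28, all 4 arrays of Crebbp+/- lay above all 4 of wild type. That is 4 of the 19, against 390 of the 10600 tested genes. Among markers of plasmacytoid dendritic cells, which also express several of these genes, 4 of 6 measured were tested. Signals of the 6 summed to 33.0 to 34.0 in wild type and 34.7 to 35.7 in Crebbp+/-, and without Ccr9 to 26.6 and 26.4 in wild type and 26.3 and 27.2 in Crebbp+/-, which overlap. Siglech and Ly6d, 2 of the 6, lay between 2.30 and 2.36 in all samples. Ccr9 differed by 1.43 and Irf8 by -0.13, and the part of plasmacytoid dendritic cells in the differences was not tested.

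Targets of Ebf1, Pax5 and the E proteins in the B lineage had 12 tested genes of 22 measured, of which 9 were higher, 3 lower and 0 called, with a median of 0.48. Within the samples numbered 1 and 2 the medians were 0.50 and 0.32. Rag1, a recombinase of antigen receptor genes, differed by 0.87 (SE 0.29, limma adjusted p = 0.991), from 3.27 and 2.59 in wild type to 3.81 and 3.80 in Crebbp+/-. Wild-type sample 2 lay below the filter there, so the size is uncertain. For Rag1 and Igll1, 2 of the 12, all 4 Crebbp+/- arrays lay above all 4 of wild type, against 390 of 10600 tested genes. Among the other higher genes, Vpreb1, Igll1, Rag2 and Cd72 also had weak wild-type means, from 2.81 to 3.72. Syk, Il7r, Ighm and Pik3ap1 had wild-type means from 5.55 to 8.51. They differed by 0.42, 0.70, 0.47 and 0.38 (SE 0.27 to 0.55). The 3 lower genes, Btk, Cd79b and Cd24a, differed by -0.16, -0.05 and -0.03. The 10 untested genes include Cd79a, Blnk, Blk, Cd22, Dntt and Vpreb3, which lay between 2.25 and 2.57 in every sample. Log2 signals of the 22 genes summed to 97.4 in wild-type sample 1, 102.5 in wild-type sample 2, and 102.7 and 106.9 in the Crebbp+/- samples. The lowest sum was that of wild-type sample 1, which was also lowest at Ebf1 1416301_a_at but not at 1448293_at. These lists were written with earlier results of these data known and are no independent evidence of a direction.

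**Figure D5:**
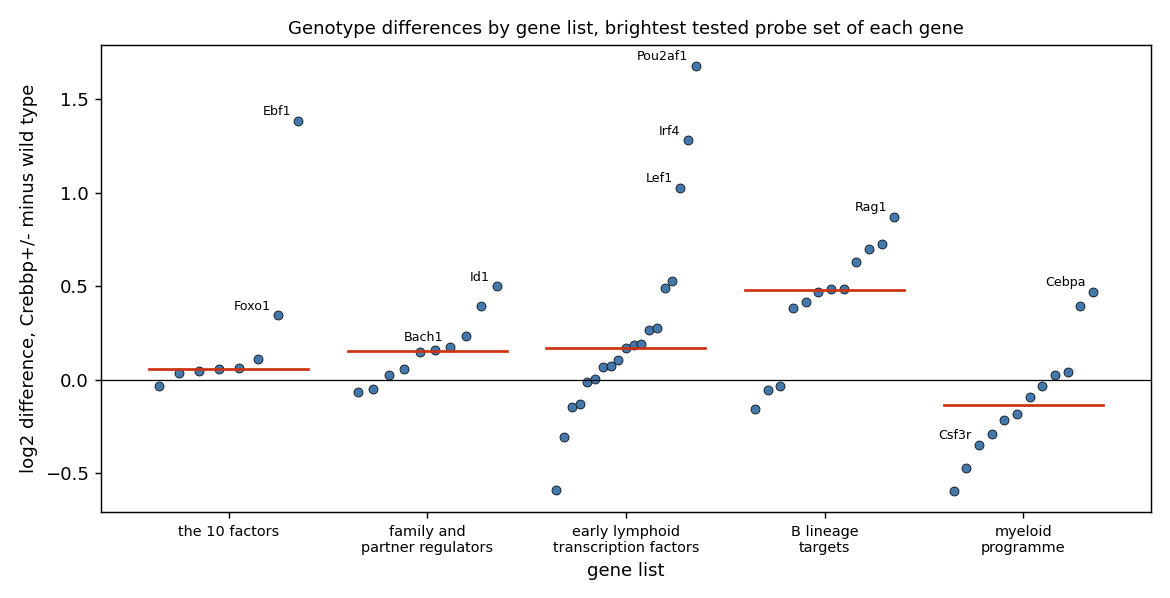
Log2 difference, Crebbp+/- minus wild type, of each tested gene (brightest probe set) in the list of the 10 factors and in 4 further lists, with the median of each list as a red line and the genes named by the fixed rule labelled. Medians run from -0.14 for the myeloid programme to 0.48 for B lineage targets, and no gene shown was called.

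Genes whose signal followed the brightest probe set of a factor most closely were sought among the brightest tested probe set of each other gene. For Ebf1 they were Zfp213, Rpp14 and Mettl8, with Pearson correlations of 0.97, 0.96 and 0.95 over 8 arrays. The arrays repeat 4 samples, the 3 genes were picked as the highest of all tested genes, and each was lowest in wild-type sample 1, as Ebf1 was. Zfp213 read 6.63 in that sample and 7.20 to 7.39 in the others.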

How the data were processed

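RNA of sorted fetal liver stem cells was measured on Affymetrix whole-genome mouse arrays. The authors deposited log2 signals from GCRMA, per the submitters' processing notes, a method that corrects for probe background and normalizes between arrays; weak signals then gather just above 2. Of 45037 probe sets that are not controls, 34945 had 1 gene symbol in the platform annotation, 932 several and 9160 none. Arrays of a numbered sample were averaged, giving n = 2 per genotype, which limits the precision. Probe sets with a mean above the median of 2.72 were tested with limma 3.58.1 in R 4.3.3 (lmFit, eBayes with an intensity trend, Benjamini-Hochberg over 22518 probe sets, called under an adjusted p of 0.05). The scripts were tested on simulated data. An exact permutation test of 2 against 2 samples cannot give a two-sided p below 0.333, so none was used. Named were all probe sets of the 10 factors, Crebbp, Ep300 and, per list, up to 4 genes with an unadjusted p under 0.05 or else the 2 with the lowest p, by the probe set with the highest mean. Other genes named (Mef2c, gate, mast cell, megakaryocyte, hepatocyte and dendritic cell markers, and other B lineage genes) were chosen after their values were seen. The members and lists were chosen with earlier results of these data known. Alternatives covered the filter, normalization, arrays as replicates, the replicate number as a block and each sample left out. Promoter windows came from RefSeq.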

Additional observations from a re-analysis of the deposited data

How the results depend on the processing

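Of the alternatives, only counting all 8 arrays as independent gave a call, 1 of 22518 probe sets and none of a member; arrays of 1 sample are then taken for replicates. Member calls stayed at 0 in every setting run. Without the filter on low values 29 of 40 member probe sets were higher in Crebbp+/-, since more were counted, and 13 to 16 of 26 when each sample was left out. Same-numbered samples deviated together (correlation 0.55), but there are only 2 pairs, and the labels do not say what they share beyond a number. A fit with a replicate block for these numbers called 0 probe sets. The lowest limma adjusted p among members was then 0.172, for Ebf1 1416301_a_at at a difference of 1.38. Bcl11a 1426552_a_at was almost equal in that fit, at 0.174 and a difference of 0.63. At an unadjusted limma p under 0.05 the blocked fit had 3673 of 22518 probe sets, against 276 higher and 813 lower in the main fit. Among the 26 member probe sets the blocked fit had 2. Added quantile normalization turned the sign of Tcf3 1426297_at (-0.000899) and 1452542_x_at (0.050), Tcf4 1416724_x_at (-0.022), and Bcl11a 1456632_at (-0.0021), 1419406_a_at (-0.039) and 1457072_at (-0.034); the cause was not tested. Leaving out 1 sample turned the sign of 19 of the 26 in at least one case. The ranges were, for Tcf3, -0.39 to 0.47 (1426297_at), -0.12 to 0.24 (1427764_a_at) and -0.0078 to 0.0015 (1452542_x_at). For Tcf4 they were -0.14 to 0.077 (1416723_at), -0.32 to 0.0049 (1434148_at), -0.21 to 0.24 (1416724_x_at) and -0.23 to 0.63 (1424089_a_at). For Foxo1 they were -0.092 to 0.78 (1416982_at) and -0.25 to 0.87 (1416983_s_at). For Bcl11a they were -0.0051 to 0.094 (1456632_at), -0.051 to 0.090 (1419406_a_at), -0.15 to 0.20 (1457072_at), -0.25 to 1.5 (1426552_a_at) and -0.75 to 0.37 (1453814_at). For Satb1 they were -0.043 to 0.15 (1416008_at), -0.29 to 0.52 (1416007_at) and -0.48 to 0.16 (1439449_at). For Bach2 they were -0.047 to 1.02 (1445460_at) and -0.59 to 0.27 (1436515_at). Ebf1 1416301_a_at (0.21 to 2.55) and 1448293_at (0.36 to 0.76), Tcf4 1434149_at (-0.46 to -0.020), Bcl11a 1447335_x_at (-0.15 to -0.088), Bach2 1437667_a_at (0.034 to 0.18), Ikzf1 1436312_at (0.027 to 0.095) and Satb1 1436182_at (0.38 to 0.41) kept their sign in every setting run, with the ranges over the samples left out in brackets. Counts of higher genes in the lists stayed within 1.5 times, also as each sample was left out (family and partners 6 to 8, early lymphoid 11 to 15, B lineage 7 to 11, myeloid 3 to 6), in settings chosen after seeing the data.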

Other observations

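Genes of the myeloid programme, the fate that several of the 10 factors oppose, had 12 tested genes of 12 measured, of which 4 were higher and 8 lower in Crebbp+/- and 0 were called by limma, with 0 under an unadjusted p of 0.05. The median difference was -0.14, with 0.03 between the number 1 samples and -0.13 between the number 2 samples. Cebpa, a master regulator of granulocytes, differed by 0.47 (SE 0.33) and Csf3r, the receptor for granulocyte colony-stimulating factor, by -0.35 (SE 0.27), the latter with all 4 Crebbp+/- arrays below all 4 of wild type. That is 1 of the 12, against 211 of 10600 tested genes lower without overlap at their brightest probe set.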
